A study of Mus musculus with 8 samples.

Results

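Transcript levels of 10 genes widely used to mark neurons were examined in RNA from mouse astrocytes: Map2, Tubb3, Stmn2, Nefl, Nefm, Snap25, Syn1, Syt1, Rbfox3 and Gad1. They were taken from the deposited table by symbol, and all 10 were found among its 23401 genes. The values are TPM (transcript abundance per length), which scales a gene for its length and every library to the same total. Levels of different genes are therefore per length, while differences between libraries also moved with the way the libraries were scaled, and 5 scalings were compared. There were 4 groups of 2 libraries, 8 in all: astrocytes in MGS at day 5, astrocytes in conventional culture (CV) at day 5, and the same cultures at day 32. The labels do not explain the letters MGS. In the sample descriptions the word soft stands for MGS and the word hard for CV. All groups share the label mouse astrocyte, and the CV group of the same day served as the control. Genotype, strain, age of the animals, brain region and any agent added to the medium are not given in the labels used here. Nor do the labels say whether the libraries of a group came from separate cultures or animals. The p-values therefore speak of the spread among these libraries alone, and that spread may be technical.

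Neurons grow long processes on a scaffold of microtubules and neurofilaments, and they release transmitter from vesicles that fuse with the membrane at the synapse. The 10 genes encode parts of that scaffold, parts of the fusion machinery, a splicing factor of neuronal nuclei and an enzyme of transmitter synthesis. Many genes of this kind are held down outside neurons by the repressor REST, which binds a DNA element named RE1. Astrocytes are glia: they take up glutamate, form gap junctions and carry the filament protein GFAP, and several neuronal cytoskeletal RNAs, Map2 and Tubb3 among them, are also known from neural progenitors and from cultured glia.

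The libraries held 2.15 to 4.69 gigabases of aligned sequence, the CV libraries being the shallower ones at both days. Replicates differed least in MGS and most in CV at day 32: the log2 difference within a pair had an SD over genes of 0.191 to 0.321 in 3 groups and of 0.465 in that one. All 10 astrocyte markers examined were at 1 TPM or more in every library. Gfap, the astrocyte filament protein, stood at 13720 and 13740 TPM in MGS at day 5, 1657 and 1540 in CV at day 5, 9571 and 9605 in MGS at day 32, and 695.7 and 811.6 in CV at day 32. Neuronal genes outside the 10 differed widely in level, and those given here were chosen after their values were seen. The vesicular glutamate transporter Slc17a6 was listed at 0 in all 4 day 32 libraries and reached at most 0.4047 TPM at day 5, and its relative Slc17a7 ranged from 0.08795 to 1.232 TPM. Slc32a1, which loads GABA into vesicles, was at 1.462 and 1.322 TPM in MGS at day 5 and at most 0.1142 TPM elsewhere. In contrast, the calcium buffer gene Pvalb was at 51.91 to 61.39 TPM in MGS, the AMPA receptor subunit gene Gria1 at 49.6 to 84.1 TPM in the day 32 libraries, and the kinase gene Camk2a at 30.97 and 33.01 TPM in MGS at day 32. In bulk RNA, fewer cells of a type and less RNA per cell cannot be told apart.

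The stretches of DNA around the transcription starts of Syn1, Map2 and Tubb3 are printed here because Syn1 carries an RE1, Map2 had culture differences of opposite sign at the 2 days, and Tubb3 was higher in MGS at both. Each runs from 250 bases before to 50 bases after the start (RefSeq, GRCm38.p6), 5′ to 3′ on the strand of the gene. Capitals mark RE1 and a cAMP response element in Syn1, and GC boxes in Map2 and Tubb3.
Syn1 (chrX:20920869-20921168, minus strand): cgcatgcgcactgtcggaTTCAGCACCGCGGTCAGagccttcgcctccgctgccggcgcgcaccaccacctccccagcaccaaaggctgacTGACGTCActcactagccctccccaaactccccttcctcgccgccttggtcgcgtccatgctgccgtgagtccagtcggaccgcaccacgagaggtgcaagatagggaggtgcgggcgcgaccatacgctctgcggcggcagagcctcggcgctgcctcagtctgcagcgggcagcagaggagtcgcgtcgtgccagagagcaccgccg
Map2 (chr1:66175079-66175378, plus strand): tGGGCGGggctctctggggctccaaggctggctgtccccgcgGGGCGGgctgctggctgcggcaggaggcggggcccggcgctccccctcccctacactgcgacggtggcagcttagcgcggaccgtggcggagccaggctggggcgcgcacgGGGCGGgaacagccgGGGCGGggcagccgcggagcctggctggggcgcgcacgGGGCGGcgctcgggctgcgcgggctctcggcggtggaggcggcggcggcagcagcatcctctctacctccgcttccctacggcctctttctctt
Tubb3 (chr8:123411303-123411602, plus strand): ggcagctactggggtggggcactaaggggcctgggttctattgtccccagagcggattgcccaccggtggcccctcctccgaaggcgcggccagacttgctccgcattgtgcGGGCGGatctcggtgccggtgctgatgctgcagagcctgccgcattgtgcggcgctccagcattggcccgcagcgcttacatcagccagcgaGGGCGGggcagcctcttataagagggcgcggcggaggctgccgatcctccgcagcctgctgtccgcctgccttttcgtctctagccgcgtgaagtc
The motifs searched, on both strands, were RE1 as the 17 bases in capitals in Syn1 with positions 10, 11 and 14 free, the GC box as GGGCGG and the cAMP response element as TGACGTCA, with no overlap among the matches marked. The free positions of RE1 were chosen after the Syn1 sequence had been seen, so that match is a description. In Syn1 the RE1 began 232 bases and the cAMP response element 159 bases before the start. Map2 held 5 GC boxes and Tubb3 held 2. Of 32851 promoters of this length, 0.0213% held the RE1 letters, 1.79% the cAMP response element and 35.7% a GC box. Promoters were matched for 6 of the 10 members. Among them Gad1 held 1 GC box, 1 of the 2 Syt1 promoters held 1, and Rbfox3 held none of the 3 motifs. Snap25, Stmn2, Nefl and Nefm were not matched.

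Map2, a microtubule-associated protein of dendrites (chromosome 1, 66175329 to 66442583, plus strand, mm10), was lower in MGS than in CV at day 5 and higher at day 32. Its level was 29.46 and 33.14 TPM in MGS and 57.96 and 88.28 TPM in CV at day 5. At day 32 it was 93.41 and 90.66 TPM in MGS and 17.82 and 33.21 TPM in CV. The libraries of the cultures did not overlap at either day, and the order of the cultures was opposite at the 2 days. In limma across all genes, the log2 fold change of MGS against CV was -1.17 (SE 0.30, adjusted p = 0.0143) at day 5 and 1.87 (SE 0.30, adjusted p = 0.00114) at day 32. Fold changes here compare log2(TPM + 1), and that scale shrinks the differences of low genes. Under the 5 ways of scaling the libraries the value ran from -1.17 to -0.85 at day 5 and from 0.63 to 1.87 at day 32, each past the threshold. Without MGS day 5 replicate 1, MGS day 5 replicate 2 or CV day 5 replicate 2 the day 5 difference missed the threshold (adjusted p = 0.0856, 0.0573 and 0.0994). Map2 has a long transcript (6258 bases), and the fold changes of all genes moved with length: in the eighth of the genes by length that holds Map2 the median was -0.29 at day 5 and 1.01 at day 32.

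Tubb3, the beta-tubulin used as a neuronal marker (chromosome 8, 123411564 to 123422010, plus strand), was higher in MGS at both days and varied least across groups apart from Syn1. Its level was 35.88 and 35.07 TPM in MGS and 19.48 and 16.82 TPM in CV at day 5. At day 32 it was 29.74 and 31.90 TPM in MGS and 21.69 and 19.81 TPM in CV. Every MGS library lay above every CV library. The log2 fold change was 0.93 (SE 0.13, adjusted p = 0.000995) at day 5 and 0.55 (SE 0.13, adjusted p = 0.00815) at day 32. The day 5 value stayed between 0.52 and 1.12 under the 5 scalings. The day 32 value rested on the scaling: it was 0.17 from FPKM, -0.062 with median-of-ratios scaling and -0.066 with quantile normalization, and it missed the threshold without MGS day 32 replicate 2 (0.50, adjusted p = 0.0707).

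Stmn2, a stathmin that binds tubulin dimers in growing axons (chromosome 3, 8509527 to 8561604, plus strand), was the member with the largest difference between the cultures, and it was lower in MGS. At day 5 it stood at 13.72 and 15.97 TPM in MGS against 100.9 and 118.1 TPM in CV. At day 32 it stood at 15.73 and 13.38 TPM in MGS against 143.0 and 145.8 TPM in CV. The cultures were far apart at both days, and the MGS libraries of the 2 days overlapped. The group means were 7.37-fold apart at day 5 (14.8 ± 1.59 against 109.5 ± 12.2 TPM, SD, n = 2) and 9.92-fold apart at day 32 (14.6 ± 1.66 against 144 ± 2.03). The log2 fold changes were -2.80 (SE 0.14, adjusted p = 6.48e-06) and -3.23 (SE 0.14, adjusted p = 2.61e-06). Under the 5 scalings they ran from -2.80 to -2.59 and from -3.84 to -3.23. All genes of the same eighth by length had medians of -0.15 and 0.57.

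Nefm and Nefl encode the medium and light neurofilament subunits, which copolymerise in axons. Nefm (chromosome 14, 68119545 to 68125004, minus strand) was lower in MGS at both days, at 4.248 and 4.089 TPM against 13.90 and 14.47 TPM in CV at day 5. At day 32 Nefm was at 1.324 and 1.540 TPM in MGS and 4.110 and 5.995 TPM in CV. No MGS library reached the CV libraries of its day. The log2 fold changes of Nefm were -1.56 (SE 0.18, adjusted p = 0.000379) and -1.30 (SE 0.18, adjusted p = 0.000652). Nefl (chromosome 14, 68083884 to 68087737, plus strand) was at 3.957 and 3.460 TPM in MGS and 5.021 and 4.708 TPM in CV at day 5. At day 32 Nefl was at 0.4934 and 0.3974 TPM in MGS and 0.4300 and 1.122 TPM in CV, where the cultures overlapped. The differences of Nefl, -0.32 (SE 0.19, adjusted p = 0.209) and -0.27 (SE 0.19, adjusted p = 0.247), did not pass the test. The day 32 difference of Nefl did pass after median-of-ratios scaling (-0.48, adjusted p = 0.0393), quantile normalization (-0.95, adjusted p = 0.00117) and correction for length and GC content (-0.89, adjusted p = 0.000655), and quantile normalization also gave a called day 5 difference (-0.51, adjusted p = 0.0241). Without CV day 32 replicate 2 the day 32 value of Nefl was 0.015, and without CV day 32 replicate 1 it was -0.56 (adjusted p = 0.0119). Both genes lie on the same chromosome, and the heavy subunit Nefh was listed at 0 in all 4 day 32 libraries.

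Snap25, the SNARE protein of the plasma membrane at the synapse (chromosome 2, 136713450 to 136782428, plus strand), was near the limit of detection in CV at day 32. It stood at 2.201 and 2.722 TPM in MGS and 3.354 and 3.747 TPM in CV at day 5, and at 1.177 and 0.705 TPM in MGS and 0.08126 and 0 TPM in CV at day 32. The cultures did not overlap at either day, and CV held the higher level at day 5 and the lower one at day 32. The log2 fold change was -0.40 (SE 0.16, adjusted p = 0.0723) at day 5, which did not pass the test, and 0.89 (SE 0.16, adjusted p = 0.00198) at day 32. The mean depth over the gene in CV at day 32 was 0.142 in 1 library and 0 in the other. After quantile normalization and after correction for length and GC content the day 32 value was 0.14 and 0.087 and missed the threshold.

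Syn1, synapsin I, a phosphoprotein that tethers synaptic vesicles (chromosome X, 20860511 to 20920918, minus strand), varied least of the 10. At day 5 it stood at 5.002 and 5.034 TPM in MGS and 5.013 and 5.527 TPM in CV. At day 32 it stood at 7.695 and 7.614 TPM in MGS and 4.091 and 5.371 TPM in CV. The day 5 cultures overlapped and the day 32 cultures did not. The log2 fold change was -0.058 (SE 0.16, adjusted p = 0.788) at day 5 and 0.60 (SE 0.16, adjusted p = 0.0131) at day 32. The day 32 value was close to the median of all genes, 0.56, and its direction rested on the scaling: median-of-ratios scaling gave 0.062, quantile normalization gave -0.42 (adjusted p = 0.00946), and it was -0.029 after correction for length and GC content. It also missed the threshold without MGS day 32 replicate 1 or replicate 2 (adjusted p = 0.0771 and 0.0735). Timp1, an inhibitor of metalloproteinases, lies within the span of Syn1 on the other strand and shares 0 exon bases with it. Timp1 stood at 22.69 TPM to 174.5 TPM. Whether reads were assigned by strand is not given in the sources used here, so reads of Syn1 introns and of Timp1 cannot be told apart. The neighbour Araf shares 9 exon bases with Syn1.

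Syt1, synaptotagmin 1, the calcium sensor of vesicle release (chromosome 10, 108497650 to 109010975, minus strand), was lower in MGS at day 5. It stood at 0.868 and 1.175 TPM in MGS and 1.854 and 2.320 TPM in CV at day 5, and at 0.6705 and 0.4587 TPM in MGS and 0.7416 and 1.061 TPM in CV at day 32. MGS lay below CV without overlap at both days. The log2 fold change was -0.61 (SE 0.15, adjusted p = 0.0138) at day 5 and -0.28 (SE 0.15, adjusted p = 0.14) at day 32. At day 5 Syt1 missed the threshold when MGS day 5 replicate 1 (-0.50, adjusted p = 0.0947) or CV day 5 replicate 2 (-0.50, adjusted p = 0.0811) was left out, and after correction for length and GC content (-0.36). The day 32 difference passed the threshold after median-of-ratios scaling (-0.53, adjusted p = 0.00666), quantile normalization (-1.05) and correction for length and GC content (-1.20).

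Rbfox3, the splicing factor known as NeuN and used to stain neuronal nuclei (chromosome 11, 118489760 to 118909572, minus strand), was the least abundant of the 10. It stood at 1.058 and 1.521 TPM in MGS and 0.1892 and 0.6297 TPM in CV at day 5, and at 0.2219 and 0.1872 TPM in MGS and 0.08596 and 0.09194 TPM in CV at day 32. MGS lay above CV without overlap at both days. Rbfox3 passed the filter on low values only through MGS at day 5, so a difference there was built into its being tested: 0.71 (SE 0.17, adjusted p = 0.0104) at day 5 and 0.15 (SE 0.17, adjusted p = 0.459) at day 32. The day 5 value was 0.56 (adjusted p = 0.0703) without MGS day 5 replicate 2, 0.21 (adjusted p = 0.306) after quantile normalization and 0.42 (adjusted p = 0.125) after correction for length and GC content.

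Gad1, glutamate decarboxylase 67, which makes GABA (chromosome 2, 70562164 to 70602012, plus strand), was higher in MGS at both days. It stood at 2.788 and 3.938 TPM in MGS and 1.199 and 1.453 TPM in CV at day 5, and at 2.098 and 1.722 TPM in MGS and 0.1469 and 0.3941 TPM in CV at day 32. Every MGS library of either day lay above all CV libraries. The log2 fold change was 0.90 (SE 0.18, adjusted p = 0.00468) at day 5 and 1.20 (SE 0.18, adjusted p = 0.000807) at day 32. It kept its sign under the 5 scalings, at 0.54 to 1.03 and 0.30 to 1.20, and missed the threshold at day 32 after quantile normalization (adjusted p = 0.127). The gene 1500002O10Rik overlaps Gad1 on the other strand and stood at 1.847 to 4.180 TPM.

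**Figure D1:**
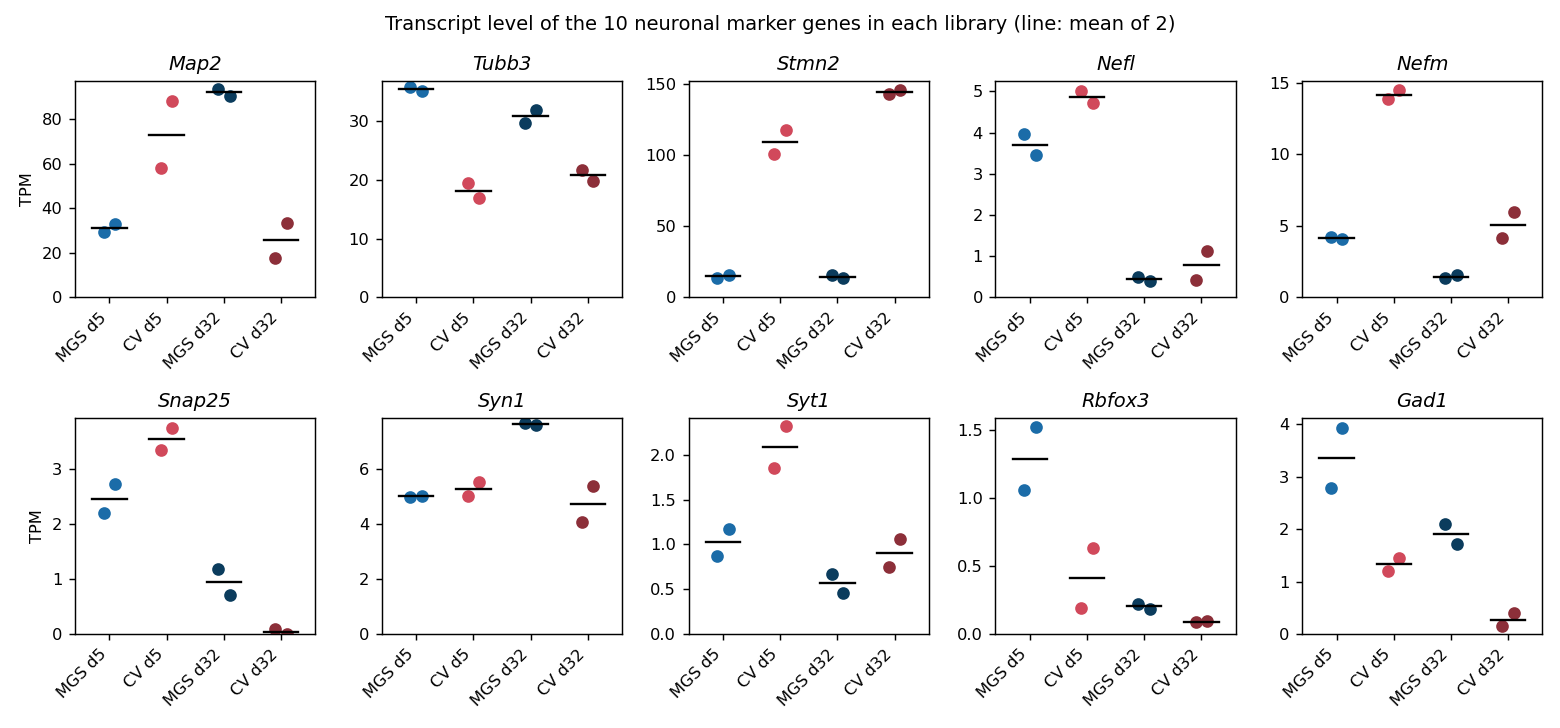
TPM (vertical axis, linear, from 0) of each of the 10 genes in each of the 8 libraries by culture and day; points are libraries and lines are group means (n = 2). Stmn2 lies at 13.38 to 15.97 TPM in MGS and at 100.9 to 145.8 TPM in CV, Map2 is highest in MGS at day 32, and Snap25 is at 0.08126 and 0 TPM in CV at day 32.

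At day 5, 3 of the 10 members were called higher in MGS (Tubb3, Gad1 and Rbfox3) and 4 lower (Map2, Stmn2, Nefm and Syt1), at an adjusted p under 0.05. The call of Rbfox3 was built into its being tested, since it passed the filter only through MGS at day 5. Of all 14904 genes tested, 48.9% were called in this comparison, 22.5% higher and 26.4% lower, so differences were common among all genes. The median log2 fold change of the 10 was -0.36, and that of all genes was -0.14. The libraries of the cultures did not overlap in 9 of the 10, 3 higher and 6 lower in MGS. Of all genes, 34.4% were higher and 49.2% lower without overlap.

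At day 32, 5 of the 10 were called higher in MGS (Map2, Tubb3, Snap25, Syn1 and Gad1) and 2 lower (Stmn2 and Nefm). Among all genes 67.6% were called, 52.8% higher and 14.8% lower. The median of the 10 was 0.35 and that of all genes 0.56. Non-overlapping libraries were found for 9 of the 10, 6 higher and 3 lower, against 63.6% and 20.9% of all genes. The split of the members followed the scaling: median-of-ratios scaling, under which the median of all genes was -0.003, gave 3 higher and 4 lower, and quantile normalization gave 1 higher and 5 lower. Over all genes the share of the calls that were higher in MGS was 78% as deposited, 50.1% with median-of-ratios scaling, 47.1% with quantile normalization and 43.8% after correction for length and GC content. Relative to the median of all genes, Stmn2 stood at -3.79, Nefm at -1.86, Map2 at 1.32, Gad1 at 0.64, Snap25 at 0.33, Syn1 at 0.046 and Tubb3 at -0.008.

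**Figure D2:**
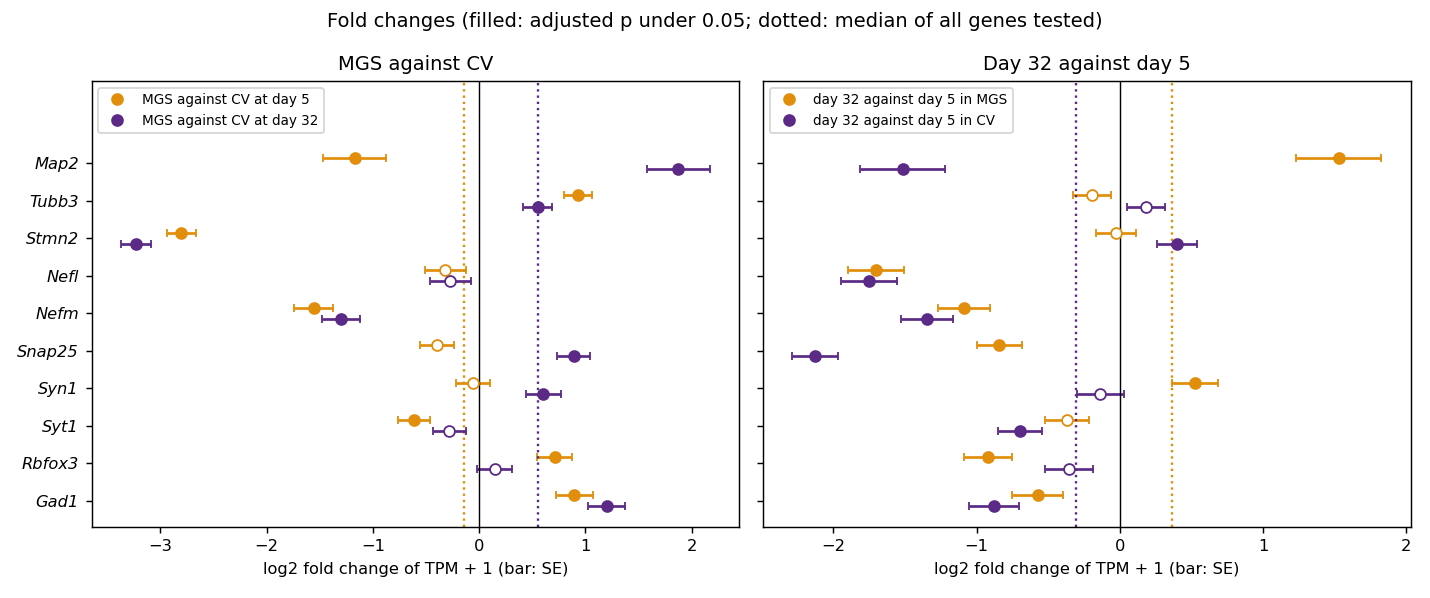
Log2 fold changes of TPM + 1 (horizontal axis) of the 10 genes with their SE (bars), for MGS against CV at each day (left) and day 32 against day 5 in each culture (right); filled points have an adjusted p under 0.05 and dotted lines are the medians of all genes tested. Map2 lies at -1.17 at day 5 and 1.87 at day 32, and Stmn2 lies at -2.80 and -3.23.

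**Figure D3:**
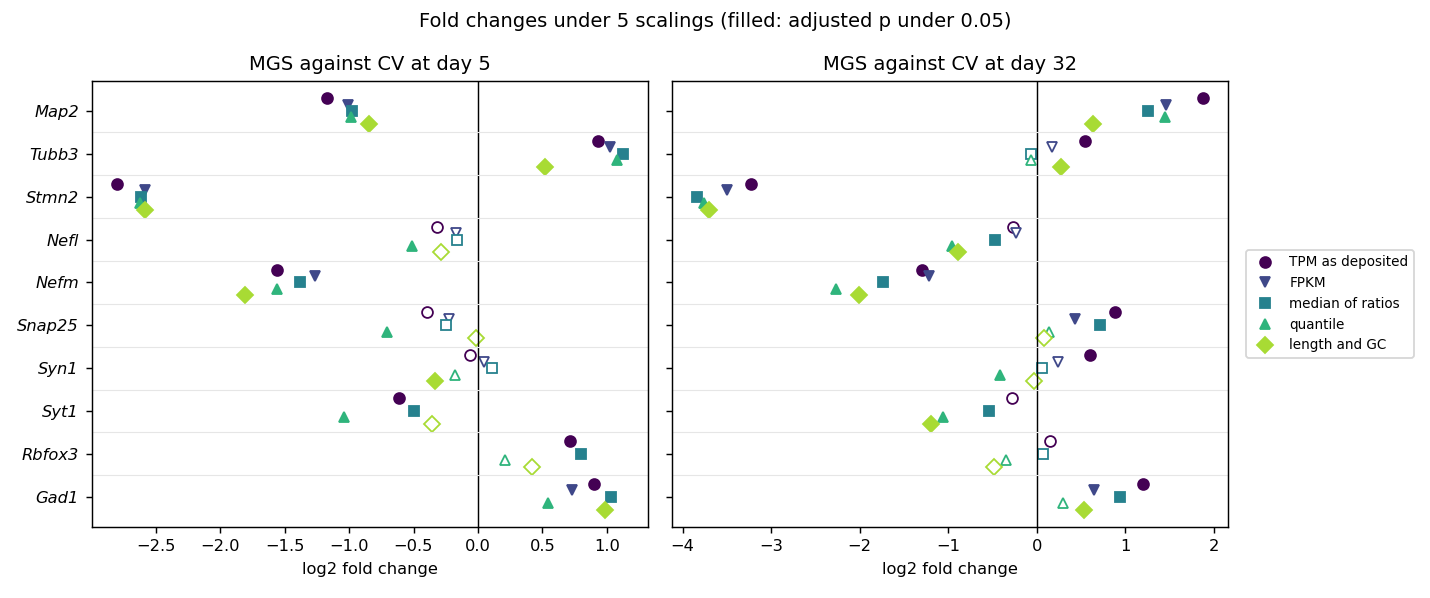
Log2 fold changes (horizontal axis) of MGS against CV at day 5 (left) and day 32 (right) for the 10 genes under 5 scalings of the libraries; filled points have an adjusted p under 0.05. Stmn2, Nefm, Map2 and Gad1 keep their sign under every scaling shown, while Tubb3 and Syn1 at day 32 lie on both sides of 0. Syt1 and Rbfox3 have no FPKM point, because they fell under the filter there.

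Between day 5 and day 32, Snap25, Nefl, Nefm and Gad1 were called lower in both cultures. The share of all genes called lower in both was not counted, so this overlap has no background to be read against and is a description. Within MGS, 2 of the 10 rose (Map2 by 1.53 and Syn1 by 0.52 on the log2 scale) and 5 were called lower at day 32, namely Snap25, Nefl, Nefm, Gad1 and Rbfox3. For Rbfox3, which passed the filter only through MGS at day 5, that call was built in. Nefl and Snap25 passed the filter only through the day 5 libraries of both cultures, so their being tested favoured a fall in each. Of all genes, 42.5% were called in MGS, 35% higher and 7.53% lower at day 32. Within CV, 1 of the 10 rose (Stmn2, 0.40, adjusted p = 0.0456) and 6 fell (Snap25, Map2, Nefl, Nefm, Syt1 and Gad1), against 16% of all genes higher and 37.7% lower (53.7% in all). The libraries of the days did not overlap in MGS for 9 of the 10, 2 higher and 7 lower at day 32, where 67.9% and 20.7% of all genes did so. In CV this held for 9 of the 10, 2 higher and 7 lower, against 22.3% and 49.8% of all genes. Nefl had the largest fall in MGS, -1.70 (SE 0.19, adjusted p = 0.000784), with a similar -1.75 (SE 0.19, adjusted p = 0.000372) in CV. Snap25 had the largest fall in CV, -2.13 (SE 0.16, adjusted p = 5.2e-05), and fell by 0.84 in MGS (adjusted p = 0.00594). Map2 moved in opposite directions, 1.53 (SE 0.30, adjusted p = 0.0067) in MGS and -1.52 (SE 0.30, adjusted p = 0.0049) in CV. The rise of Stmn2 in CV was lost in each of the 8 fits that left out 1 library (adjusted p = 0.0575 to 0.205). The rise of Syn1 in MGS was lost in 6 of them, with adjusted p = 0.169 at the highest, and its value after quantile normalization was -0.10. The fall of Gad1 in MGS, -0.57 (adjusted p = 0.0351), was lost without MGS day 5 replicate 2 (-0.38), MGS day 32 replicate 1 (-0.67) or MGS day 32 replicate 2 (-0.48). Within MGS the rise of Map2 narrowly missed the threshold without MGS day 5 replicate 1 (1.45, adjusted p = 0.0554), as did the fall of Snap25 without MGS day 32 replicate 2 (-0.67, adjusted p = 0.0516). Within CV the fall of Syt1 did so without CV day 5 replicate 2 (-0.59, adjusted p = 0.0509). After median-of-ratios scaling the members called were 1 higher and 7 lower in MGS and 2 higher and 6 lower in CV, and the share of all calls that were higher moved from 82.3% to 50.1% in MGS and from 29.8% to 50.4% in CV. The 2 comparisons over time share libraries with those between the cultures.

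The difference between the cultures itself changed with the day for 3 members in the culture by day interaction: Map2 (3.04, SE 0.42, adjusted p = 0.00104), Snap25 (1.29, SE 0.22, adjusted p = 0.00269) and Syn1 (0.66, SE 0.23, adjusted p = 0.0391). In the other direction limma called 0 of the 10, and 1 of them, Rbfox3, had an unadjusted p under 0.05 (-0.57, unadjusted p = 0.0464 from limma across all genes, not an exact test). Rbfox3 passed the filter only through MGS at day 5, so its being tested favoured a negative interaction. Under the other scalings 2 to 4 of the 10 were called in that direction. Among all genes 62% had an interaction, 49.7% higher and 12.3% lower, with a median of 0.65. The interaction of Map2 ran from 1.48 to 3.48 over all alternatives. That of Snap25 was 0.10 and no longer called after correction for length and GC content. That of Syn1 was lost without 1 library in 6 of 8 cases, with adjusted p = 0.121 at the highest, and was -0.045 after median-of-ratios scaling. For Stmn2 the interaction was -0.43 (SE 0.20, adjusted p = 0.0966), and it passed the threshold at -1.23 after median-of-ratios scaling.

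The order of the 4 groups differed from member to member. Stmn2 ran from CV at day 32 over CV at day 5 to MGS, and Map2 from MGS at day 32 over CV at day 5 to MGS at day 5 and CV at day 32. Tubb3 and Gad1 had both MGS groups above both CV groups, and the libraries of neighbouring groups did not overlap in either gene. Nefl, Nefm, Syt1 and Snap25 were highest in CV at day 5, with no overlap between neighbours for Snap25. CV at day 32 was the lowest group for Snap25, Syn1, Map2, Rbfox3 and Gad1, although its libraries overlapped MGS at day 5 for Syn1 and Map2. The ratio of the highest to the lowest group mean was 1.62 for Syn1, 1.95 for Tubb3, 3.61 for Map2 and 9.92 for Stmn2. Summed over the 10, the level was 99.17 and 106.1 TPM in MGS at day 5, 208.8 and 256.0 TPM in CV at day 5, 152.6 and 148.6 TPM in MGS at day 32, and 192.2 and 212.9 TPM in CV at day 32. Map2, Stmn2 and Tubb3 made up 79.3% to 95% of that sum, so the sum chiefly shows these 3 genes. Without them it was 20.1 and 21.9 TPM in MGS at day 5, 30.5 and 32.9 TPM in CV at day 5, 13.7 and 12.6 TPM in MGS at day 32, and 9.69 and 14.0 TPM in CV at day 32. Between 5 and 10 members were at 1 TPM or more in a library.

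Some close relatives of the cytoskeletal members differed between the cultures in the direction of the member and others in the opposite one. Among the stathmins, Stmn2 and Stmn1 were lower in MGS, whereas Stmn3 and Stmn4 were higher. At day 5 Stmn3 reached 33.1 ± 1.32 TPM in MGS and 12.8 ± 0.895 TPM in CV (1.31, adjusted p = 0.000615), and it was at 26.1 ± 1.41 against 5.29 ± 1.17 TPM at day 32 (2.12, adjusted p = 3.67e-05). Stmn4 stood at 14.2 ± 0.0853 against 2.29 ± 0.0276 TPM at day 5 (2.21, adjusted p = 0.000676) and at 17.0 ± 0.577 against 0.829 ± 0.849 TPM at day 32 (3.38, adjusted p = 5.46e-05). Stmn1, the ubiquitous stathmin of dividing cells, was more abundant than any member and lower in MGS at both days (-0.70 and -0.35). The signs of Stmn1, Stmn3 and Stmn4 held under the 5 scalings. Among the beta-tubulins, Tubb4a, which is abundant in the brain, was higher in MGS at both days, as Tubb3 was in the deposited TPM, by 2.33 (adjusted p = 6.71e-06) and 2.60 (adjusted p = 3.05e-06), and Tubb6 was lower by -1.40 and -1.20. Tubb5, found in most cells, stood at 1001 ± 49.0 against 1152 ± 121 TPM at day 5 (-0.20, adjusted p = 0.146). At day 32 Tubb5 was at 545.6 ± 5.87 against 679.7 ± 17.1 TPM (-0.32, adjusted p = 0.0282). Its day 32 value ran from -0.95 to -0.051 under the 5 scalings. Among the microtubule-associated proteins, Map1b had the day pattern of Map2, at -1.31 (adjusted p = 0.00675) and 1.87 (adjusted p = 0.000868), although the day 32 value was 0.16 and not called at its lowest scaling. Mapt, which encodes tau, was higher in MGS at both days (0.81 and 3.59), and in CV it stood at 14.2 ± 1.47 TPM at day 5 and 1.38 ± 0.178 TPM at day 32. Map4, the relative found in most tissues, was at -0.27 (adjusted p = 0.156) and 0.67 (adjusted p = 0.00501), and its day 32 value was -0.49 at the lowest scaling.

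**Figure D4:**
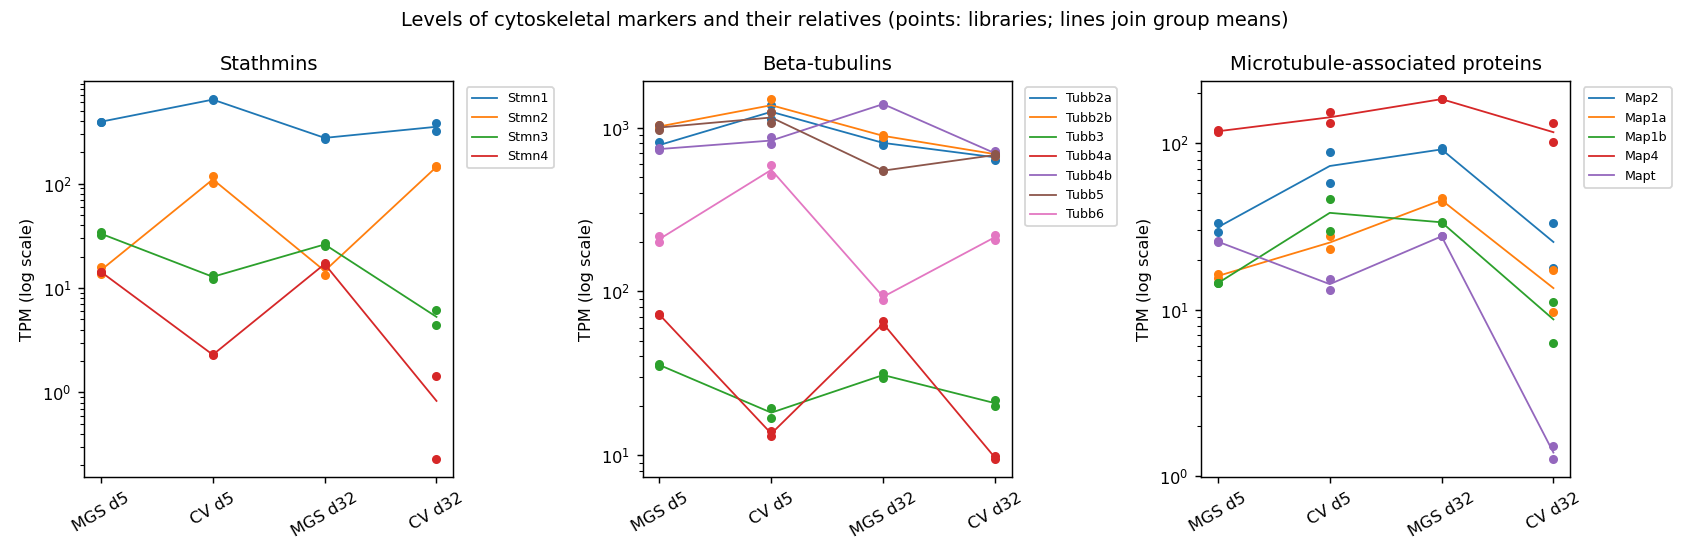
TPM (vertical axis, log scale) of the stathmins, beta-tubulins and microtubule-associated proteins by group; points are libraries and lines join group means. Stmn2 is at 13.38 to 15.97 TPM in MGS and 100.9 to 145.8 TPM in CV, while Stmn3 and Stmn4 are lower in CV, and Tubb3 and Tubb4a are the beta-tubulins with the lowest levels.

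The relatives of the other members were mostly more abundant than the members. Snap23, the SNARE that takes the place of SNAP-25 in other cells, stood at 31.3 ± 1.00 TPM in MGS at day 5 and at 35.2 ± 7.70, 39.7 ± 0.905 and 38.9 ± 18.9 TPM in CV at day 5, MGS at day 32 and CV at day 32. Its difference between the cultures was not called at either day (-0.15, adjusted p = 0.711, and 0.11, adjusted p = 0.76). Syn2, synapsin II, was lower in MGS at day 5 (-1.48, adjusted p = 0.000153) and higher at day 32 (1.29, adjusted p = 0.000218), at 13.1 ± 0.238 against 38.4 ± 1.37 TPM and 34.6 ± 1.90 against 13.7 ± 2.12 TPM. Syt11, a synaptotagmin that does not bind calcium, was at 216.5 ± 3.86 TPM in MGS and 202.7 ± 19.0 TPM in CV at day 5, far above Syt1. At day 32 Syt11 stood at 271.7 ± 4.74 against 121.5 ± 14.9 TPM (1.16, adjusted p = 0.000123). Its day 32 value was 0.18 at the lowest scaling. Rbfox2, the relative of Rbfox3 found in many tissues, was at 0.51 (adjusted p = 0.09) and 1.08 (adjusted p = 0.00367), with a day 32 value of -0.21 at the lowest scaling. Gad2, the other GABA-synthesising enzyme, was at 0.7128 TPM at most and was not tested.

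Other neuronal genes were counted in 7 lists that leave out the 10 members. Of 147 listed genes 145 were in the files and 111 were tested. At day 5, 34 of them were higher in MGS and 30 lower, with a median of -0.057 against -0.14 for all genes. At day 32, 91 were higher and 3 lower, with a median of 1.15 against 0.56. Some genes of the lists passed the filter only through the group where they were high. Slc32a1 and Sst did so through MGS at day 5 and Cacna1e through MGS at day 32. Calls of that kind were built in, and they were not counted. Of all genes, 22.5% were higher and 26.4% lower at day 5, and 52.8% were higher and 14.8% lower at day 32. The day 32 counts rested on the scaling: they were 77 higher and 11 lower with median-of-ratios scaling, 53 and 12 with quantile normalization and 45 and 23 after correction for length and GC content, and 68 and 5 of 91 tested from FPKM. Within MGS 55 rose and 19 fell, where 35% of all genes rose and 7.53% fell, and after correction for length and GC content 26 rose and 36 fell. Within CV 7 rose and 72 fell, where 16% of all genes rose and 37.7% fell, and the correction gave 20 and 51.

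Genes of synaptic vesicles and release had 6 higher and 7 lower of 28 tested at day 5 and 26 higher and 0 lower at day 32. Dnm1, the dynamin of vesicle retrieval, was higher in MGS at both days (3.12 and 2.63), as was the SNARE Stx1a at day 5 (1.48, adjusted p = 0.000149). Cadps, a priming factor of dense-core vesicles, stood at 23.2 ± 0.831 TPM in MGS and 1.64 ± 0.757 TPM in CV at day 32. The 26 became 12 to 20 higher with 0 to 3 lower under the other scalings. Cytoskeletal genes had 9 higher and 7 lower of 21 at day 5 and 20 higher and 0 lower at day 32. Gap43, the growth cone protein, stood at 138 ± 2.08 TPM in MGS and 52.7 ± 8.04 TPM in CV at day 5, and Kif5c, a motor of axonal transport, was lower in MGS (-1.93). The 20 became 11 to 16 higher with 0 to 4 lower under the other scalings.

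The counts of the following lists at day 32 are likewise read beside the 52.8% of all genes higher and 14.8% lower. RNA-binding proteins and transcription factors of neurons had 6 higher and 3 lower of 15 at day 5 and 12 higher and 0 lower at day 32, which became 7 and 3 with quantile normalization and 6 and 4 after correction for length and GC content. Elavl3, a Hu protein of neurons, stood at 9.15 ± 0.601 TPM in MGS against 2.65 ± 0.180 in CV at day 5 and at 7.0 ± 0.207 against 0.151 ± 0.00579 TPM at day 32. Its relative Elavl4 was listed at 0 in both CV libraries of day 32. Genes of GABA neurons had 5 higher and 4 lower of 14 at day 5 and 7 higher and 1 lower at day 32. Slc32a1 and Sst were among those higher at day 5. They passed the filter only through MGS at day 5, so these calls were built into their being tested. At day 32 the GABA list had 5 higher and 2 lower with median-of-ratios scaling, 2 and 3 with quantile normalization and 4 and 4 after correction for length and GC content, so its excess of higher calls was lost. Pvalb, the calcium buffer parvalbumin, was higher in MGS at both days (3.43 and 3.71), and the peptide gene Npy was lower at day 32 (-2.05, adjusted p = 0.000576). Genes of glutamate neurons had 8 of 20 tested, with 1 higher and 2 lower at day 5 and 4 higher and 1 lower at day 32, which became 3 and 3 with quantile normalization and after correction for length and GC content. Gria2, an AMPA receptor subunit, was lower in MGS at day 5 (-1.64) and higher at day 32 (2.49). Channels of excitability had 2 higher and 3 lower of 11 at day 5 and 10 higher and 0 lower at day 32, and the 10 became 2 after correction for length and GC content. Among the 10, Cacna1e passed the filter only through MGS at day 32, so its call was built in. Genes of immature neurons had 5 higher and 4 lower of 14 at day 5 and 12 higher and 1 lower at day 32, which became 7 and 1 with quantile normalization and 7 and 4 after correction for length and GC content. Tagln3, a neuronal calponin relative, stood at 215.1 ± 3.78 TPM in MGS against 34.1 ± 0.234 in CV at day 5 and at 162.3 ± 4.10 against 9.91 ± 1.14 TPM at day 32. Dcx, the microtubule protein of migrating neurons, stood at 2.175 to 2.427 TPM in the MGS libraries and was listed at 0 in CV at day 32.

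**Figure D5:**
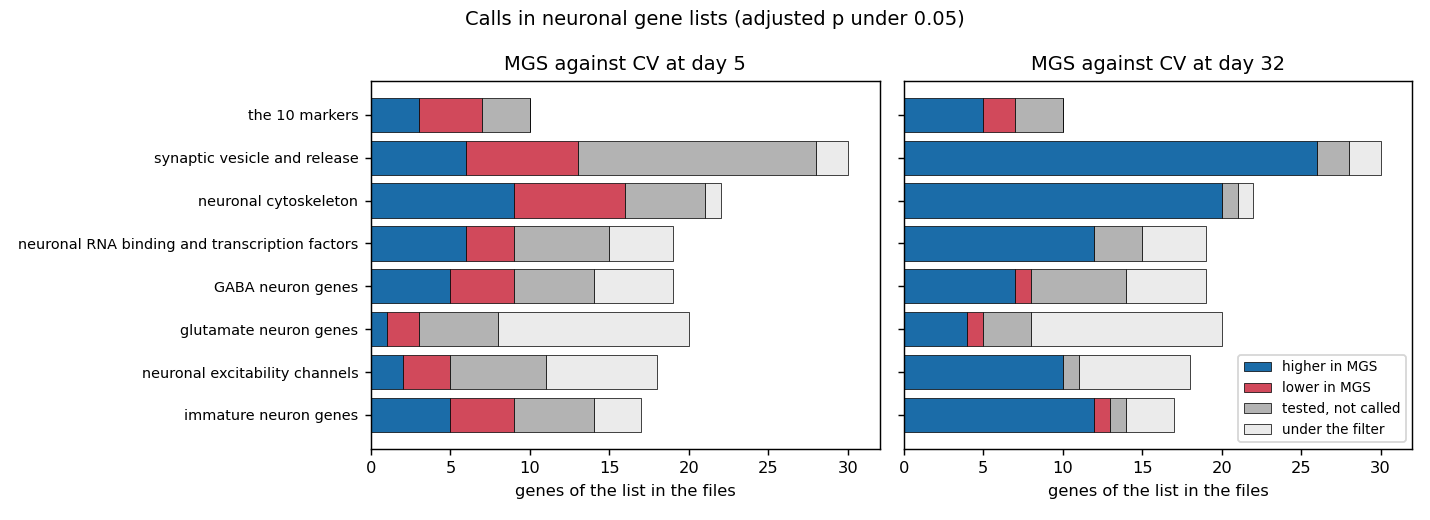
Number of genes (horizontal axis) of each neuronal list that were higher in MGS, lower in MGS, tested and not called, or under the filter, at day 5 (left) and day 32 (right); calls are at an adjusted p under 0.05. At day 32 the lists of vesicle and cytoskeletal genes have 26 and 20 genes higher and 0 lower, and the 10 markers have 5 higher and 2 lower (with median-of-ratios scaling the markers have 3 and 4).

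Rest itself, the repressor that binds RE1, stood at 7.557 and 7.889 TPM in MGS and 10.18 and 16.37 TPM in CV at day 5, and at 18.69 and 20.06 TPM in MGS and 0.6025 and 2.633 TPM in CV at day 32. The difference was -0.68 (SE 0.38, adjusted p = 0.175) at day 5 and 3.08 (SE 0.38, adjusted p = 0.000329) at day 32, where MGS held the higher level. Of 14 genes of REST, its corepressors and the PTB splicing repressors, 1 was higher and 0 lower at day 5 and 12 were higher and 0 lower at day 32, where 52.8% of all genes were higher. Median-of-ratios scaling gave 7 higher and 2 lower at day 32. The corepressor Rcor2 was higher in MGS at both days (2.89 and 2.04). Ptbp1, a splicing repressor outside neurons, was at 233.7 ± 2.09 and 329 ± 23.6 TPM at day 5 (-0.49, adjusted p = 0.101) and at 271.5 ± 13.3 and 153 ± 55.5 TPM at day 32 (0.87, adjusted p = 0.00951). Any part of REST in the levels of the 10 members was not tested.

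Markers of other cell types also differed between the cultures. Their counts, here and in the next paragraph, are read beside the shares of all genes called. Those were 22.5% higher and 26.4% lower at day 5, and 52.8% higher and 14.8% lower at day 32. The 10 astrocyte markers summed to 17400 and 17620 TPM in MGS against 3873 and 4091 TPM in CV at day 5, and to 14490 and 14460 against 1740 and 2271 TPM at day 32. Of them 5 were higher, 1 lower and 4 not called at day 5, and 9 were higher and 1 lower at day 32. The 1 lower was Aldh1l1 at both days, and it was called under each of the 5 scalings. Aldh1l1 stood at 253.8 ± 4.34 TPM in MGS against 409.8 ± 27.1 TPM in CV at day 5. At day 32 Aldh1l1 was at 162.0 ± 3.23 TPM in MGS and 248.5 ± 15.9 TPM in CV. Gfap alone stood at 13720 and 13740 TPM in MGS and 1657 and 1540 TPM in CV at day 5. At day 32 Gfap stood at 9571 and 9605 TPM in MGS and 695.7 and 811.6 TPM in CV. The MGS sums of the astrocyte markers therefore chiefly show Gfap. The 10 microglia markers summed to 409.5 and 415.2 TPM in MGS and 86.7 and 103.3 TPM in CV at day 5, where 9 were higher. At day 32 they summed to 560.4 and 557.6 TPM in MGS and 5281 and 4837 TPM in CV, where 10 were lower in MGS. The 10 meningeal fibroblast markers, all higher in MGS at both days, summed to 12320 and 14210 TPM in MGS and 390.8 and 368.5 TPM in CV at day 5, and to 13760 and 13750 TPM in MGS and 342.4 and 486.3 TPM in CV at day 32. The 10 oligodendrocyte markers summed to 1530 and 1583 TPM in MGS and 112.2 and 104.6 TPM in CV at day 5 and to 1081 and 1101 TPM in MGS and 143.5 and 163.7 TPM in CV at day 32, with 9 and 8 of 9 tested higher. The oligodendrocyte markers Mog and Opalin were listed at 0 in CV at both days. The 10 precursor markers summed to 407.2 and 411.3 TPM in MGS and 716.2 and 654.9 TPM in CV at day 5 (6 higher and 2 lower of 9), and to 588.3 and 644.0 TPM in MGS and 388.9 and 413.1 TPM in CV at day 32 (8 higher and 1 lower). The 2 lower at day 5 were Olig1 (-1.72) and Olig2 (-1.96), so the day 5 sum was lower in MGS although most calls were higher.

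The 8 ependymal markers in the files, all higher in MGS at both days, summed to 823.7 and 844.3 TPM in MGS and 271.9 and 238.7 TPM in CV at day 5, and to 2421 and 2393 TPM in MGS and 410.8 and 382.0 TPM in CV at day 32. The 10 endothelial markers summed to 245.7 and 242.7 TPM in MGS and 67.35 and 84.69 TPM in CV at day 5 (6 higher and 2 lower), and to 185.3 and 199.1 TPM in MGS and 35.84 and 63.16 TPM in CV at day 32 (5 higher and 0 lower, which became 3 and 4 after correction for length and GC content). The 5 of 10 endothelial markers higher at day 32 were near the 52.8% of all genes higher. Cldn5, the endothelial claudin, was at 23.76 and 23.35 TPM in MGS and 0 and 0.09925 TPM in CV at day 5. It passed the filter only through MGS at day 5, so its higher call there was built into its being tested. At day 32 Cldn5 was at 0.05492 and 0.1112 TPM in MGS and listed at 0 in CV, a difference that was not called (0.115). The share of these cell types in the levels of the 10 neuronal markers was not tested.

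The genes with the pattern most like that of Snap25 over the 4 group means were Xkr5, Timeless and Car14, with root-mean-square log2 differences of 0.119, 0.121 and 0.131 among 11315 candidates. Timeless, a protein of DNA replication, stood at 14.1 ± 0.892 TPM in MGS and 20.3 ± 0.470 TPM in CV at day 5, and at 8.0 ± 0.162 and 4.85 ± 1.79 TPM at day 32. Those most like Tubb3 were R3hdm4, Vps37d and Fam189b, with differences of 0.007, 0.033 and 0.043 among 11314 candidates. R3hdm4 stood at 106 ± 1.87 TPM in MGS and 54.4 ± 1.73 TPM in CV at day 5, and at 91.7 ± 3.05 and 62.3 ± 2.83 TPM at day 32. The likeness was measured on log2(TPM + 1) over the 4 group means, each of 2 libraries, and is a description. That scale shrinks the differences of low genes such as Snap25. In TPM the highest group mean of Snap25 was 87.4-fold the lowest, while Timeless ran only from 20.3 to 4.85 TPM, so the profiles differ in TPM.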

How the data were processed

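RNA sequencing of 8 libraries of mouse astrocytes was re-analysed. TRIzol was used to extract total RNA and the NEB Ultra II directional kit to build the libraries, per the labels' protocols. The tools were HISAT2 2.1.0, StringTie 1.3.4d and bcl2fastq, and hg38 and mm10 stand without roles, per the submitters' processing notes. The annotation and whether reads were assigned by strand are not given in the sources used here. The authors deposited TPM, FPKM and coverage per gene for each library, per the file headers, and a table of TPM for the whole series. TPM was the unit tested. The deposited FPKM served in an alternative, and the deposited coverage gave the depth, 2.15 to 4.69 aligned gigabases per library. TPM keeps no depth, so no counting error is given. The 10 members had 1 row per library and equal values in both deposited forms (within 1e-05 TPM). For other genes, rows of 1 gene ID were summed (23420 gene IDs).

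Genes with at least 1 TPM in at least 2 libraries were tested (14904, all 10 members among them). limma 3.58.1 in R 4.3.3 fitted 4 group means to log2(TPM + 1) in all 8 libraries (4 residual degrees of freedom, trended empirical Bayes), with two-sided tests of 5 contrasts and Benjamini-Hochberg adjustment over all genes tested. Calls are at an adjusted p under 0.05. An exact permutation test of 2 against 2 libraries cannot go below 0.333, so none was made. On simulated data for MGS against CV at day 5 (14904 genes, 200 changed), 96% of 2-fold and 100% of 4-fold changes were recovered with 8 false calls. The simulation gave all groups the same spread at a given level and changed only genes with a mean log2(TPM + 1) above 2. In the real data 48.9% of genes were called at day 5 and the spread differed between groups. The recovery therefore does not speak for members of low level. The longest GENCODE M21 transcript of a gene gave its length and GC content (99.2% of genes). Alternatives changed the unit, pseudocount (0.1), filter (none, or 5 TPM), scaling, length and GC correction, library weights, groups in the fit, replicate block and each library in turn.

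The members and gene lists were chosen with earlier results of these data known. Besides the members, each list gives up to 3 called genes each way with at least 2 TPM in the higher group. A few genes outside this rule (Slc17a6, Slc17a7, Slc32a1, Gria1, Gad2, Dcx, Elavl4, Nefh, Stmn1, Stmn3, Syt11, Mog, Opalin, Olig1, Olig2, Cldn5, Timp1, Araf and 1500002O10Rik, and astrocyte markers) were named after their values were seen. Like patterns were sought among genes with a mean of at least 5 TPM.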

Additional observations from a re-analysis of the deposited data

Results flagged for a closer look

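The difference between the cultures depended on the day for 3 of the 10 neuronal markers, by the test of the culture by day interaction in limma (Benjamini-Hochberg adjustment over all genes). For Map2 the interaction was 3.04 (log2, SE 0.42, adjusted p = 0.00104): 31.3 ± 2.61 TPM in MGS against 73.1 ± 21.4 in CV at day 5, and 92.0 ± 1.95 against 25.5 ± 10.9 TPM at day 32. For Snap25 it was 1.29 (SE 0.22, adjusted p = 0.00269): 2.46 ± 0.368 against 3.55 ± 0.278 TPM, and 0.941 ± 0.334 against 0.0406 ± 0.0575 TPM. For Syn1 it was 0.66 (SE 0.23, adjusted p = 0.0391): 5.02 ± 0.0223 against 5.27 ± 0.363 TPM, and 7.66 ± 0.0569 against 4.73 ± 0.905 TPM. Of all genes 62% had a called interaction, and the median of all genes was 0.65, close to the value of Syn1. In the length eighths that hold Map2 and Snap25 the median was 1.29. The part of transcript length in these differences was not tested beyond the correction for length and GC content, which left the interaction of Map2 at 1.48 and that of Snap25 at 0.10.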

How the results depend on the processing

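Of the fold changes of the 10 members under all alternatives, 789 kept their direction and their side of the threshold, 71 missed it, 51 newly passed it and 44 changed sign. The cause of these changes was not tested. Stmn2 and Nefm stayed lower in MGS and Map2 kept opposite signs at the 2 days under every alternative, although Map2 at day 5 lost its call without 1 of 3 libraries. The depth of CV at day 32, the shallowest group, limits Snap25, Gad1 and Rbfox3, and TPM gives no counting error. With FPKM, Syt1 and Rbfox3 fell under the filter, and under the stricter filter only 5 members remained.

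The number of members called higher in MGS at day 32 (5) became 3 with FPKM, the stricter filter, median-of-ratios scaling, the length and GC correction with or without the replicate block, and library weights, and 1 with quantile normalization. The number lower at day 32 (2) became 4 with median-of-ratios scaling and the length and GC correction and 5 with quantile normalization. The number higher at day 5 (3) became 1 with the stricter filter. In the interaction the 3 higher became 1 with the length and GC correction, and the 0 lower became 2 with FPKM, 3 with median-of-ratios scaling and quantile normalization, 4 with the length and GC correction and 1 with the replicate block. Over time in CV the 1 higher became 2 with FPKM, median-of-ratios scaling and quantile normalization, and 0 with the other pseudocount, no filter, library weights, only the groups compared and the replicate block, and the 6 lower became 2 with the stricter filter. Over time in MGS the 2 higher became 1 with FPKM, the other pseudocount, median-of-ratios scaling and quantile normalization, and the 5 lower became 1 with the stricter filter and 8 with quantile normalization and the length and GC correction. Among all genes, those called over time in MGS (6335) became 11873 with library weights and 11596 with only the groups compared, and those in CV (7997) became 4902 and 3483.

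With FPKM in place of TPM the sign turned for Syn1 at day 5 (0.050) and over time in CV (0.073), and in the interaction for Nefl (-0.069) and Gad1 (-0.083). A pseudocount of 0.1 turned Nefl in the interaction (-0.18). Median-of-ratios scaling turned Syn1 at day 5 (0.11), over time in CV (0.19) and in the interaction (-0.045), Tubb3 at day 32 (-0.062), and in the interaction Nefl (-0.32), Nefm (-0.35), Syt1 (-0.040) and Gad1 (-0.093). Quantile normalization turned Syn1 at day 32 (-0.42), over time in MGS (-0.10) and CV (0.14) and in the interaction (-0.24), Tubb3 (-0.066) and Rbfox3 (-0.35) at day 32, and in the interaction Nefl (-0.44), Nefm (-0.71), Syt1 (-0.012) and Gad1 (-0.24). The length and GC correction, alone or with the replicate block, turned Syn1 at day 32 (-0.029) and over time in CV (0.074), Rbfox3 at day 32 (-0.48), and in the interaction Nefl (-0.61), Nefm (-0.20), Syt1 (-0.84) and Gad1 (-0.45).

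Leaving out 1 library at a time, which assumes that a lone library varies like the other groups, gave 2 to 3 members higher and 2 to 5 lower at day 5, 3 to 5 and 2 to 3 at day 32, 0 to 2 and 3 to 5 over time in MGS, 0 to 0 and 5 to 7 over time in CV, and 2 to 4 and 0 to 1 in the interaction. The genes called ran from 4523 to 10086 at day 5, from 7431 to 11848 at day 32, from 2455 to 9732 over time in MGS, from 4830 to 10676 over time in CV and from 6637 to 11473 in the interaction. The sign turned for Nefl at day 32 (-0.56 to 0.015) and in the interaction (-0.24 to 0.33), for Stmn2 over time in MGS (-0.14 to 0.082) and for Syn1 at day 5 (-0.12 to 0.001) and over time in CV (-0.30 to 0.024). These include Nefl without MGS day 5 replicate 2 (-0.028) and Stmn2 without MGS day 5 replicate 2 (0.075).

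The replicate numbers of the titles are shared by the groups, and the correlation of the deviations of same-numbered libraries ran from -0.131 to 0.444 over the 6 pairs of groups, so the numbers were not taken to pair the libraries. With the replicate block the members called were 3 higher and 4 lower at day 5, 5 and 2 at day 32, 2 and 5 over time in MGS, 0 and 6 over time in CV and 3 and 1 in the interaction, and the genes called were 7894, 10440, 7209, 8529 and 9568 in the same order.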
